A study of Mus musculus with 18 samples.

Results

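Accessible chromatin in liver was compared between mice of the C57BL/6J strain and A/J mice, over the 40904 autosomal sites obtained by merging overlapping or touching peaks of these strains' 2 deposited peak lists. They belong to a study with 51302 autosomal sites over 9 strains. A site was placed in 1 of 3 classes by the lists that held a peak there, and 12100 sites were called in C57BL/6J only, 11744 in A/J only and 17060 in both. The position of a peak was the only criterion for the classes, and the signal of the peaks entered the rankings described later. Both groups were male mice, 2 per strain, that were put on the high-fat, high-sucrose (HF/HS) diet at 8 weeks of age and ate it for 8 weeks. The groups therefore differ by strain alone in the labels, and all animals share the diet. No livers from a control diet were analysed here, so the comparison sets a strain known for strong weight gain on such a diet against one known as resistant, and measures no response to the diet itself. Liver was taken as whole tissue, so a gain of accessible chromatin in a cell type and a gain of cells of that type cannot be told apart.

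Chromatin becomes accessible where nucleosomes are displaced, mainly at promoters, the regions around transcription start sites (TSSs), and at distal elements such as enhancers, which bind transcription factors and act on genes at a distance. Promoters of widely used genes often lie in CpG islands, stretches rich in G, C and the dinucleotide CpG, and tend to be open in most cell types. Distal elements are poorer in CpG and vary more between tissues, and in liver many of them bind hepatocyte factors of the HNF, FOXA and C/EBP families. FAIRE-seq recovers the DNA that formaldehyde does not crosslink to nucleosomes, and read density is therefore raised over accessible regions.

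The sequences below show what kind of DNA carried strong one-strain peaks. Each is a stretch of 200 bases within the site that lies outside annotated exons, read from the + strand of NCBIM37, the assembly that is mm9, and capitals mark every CpG. The first group comes from A/J-only promoter sites. A C57BL/6J peak that did not overlap lay 319 bp from the Thrb site.
Msh6, chr17:88374190-88374389: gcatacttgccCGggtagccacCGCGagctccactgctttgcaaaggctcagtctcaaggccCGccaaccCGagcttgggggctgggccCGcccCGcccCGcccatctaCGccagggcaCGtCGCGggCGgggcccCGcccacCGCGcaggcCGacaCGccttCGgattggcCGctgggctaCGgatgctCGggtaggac
Thrb, chr14:18493265-18493464: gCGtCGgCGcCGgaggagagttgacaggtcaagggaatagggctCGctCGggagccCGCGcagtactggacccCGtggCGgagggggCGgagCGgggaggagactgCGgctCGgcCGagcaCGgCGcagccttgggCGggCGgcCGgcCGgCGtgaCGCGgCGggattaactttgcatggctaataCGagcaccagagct

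The second group comes from sites where C57BL/6J had a peak and A/J lacked one. The first 3 lie at promoters and the last lies upstream of Cpt1a.
Deptor, chr15:54964518-54964717: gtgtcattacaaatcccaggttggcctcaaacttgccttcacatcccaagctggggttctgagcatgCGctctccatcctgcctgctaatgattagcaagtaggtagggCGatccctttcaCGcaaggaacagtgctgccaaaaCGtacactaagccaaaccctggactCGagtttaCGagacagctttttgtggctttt
Lpin2, chr17:71553761-71553960: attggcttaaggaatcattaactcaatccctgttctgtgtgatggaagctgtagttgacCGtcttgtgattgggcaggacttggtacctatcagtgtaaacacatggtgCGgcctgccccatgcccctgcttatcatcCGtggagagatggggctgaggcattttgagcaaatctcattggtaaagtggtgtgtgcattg
Apoa2, chr1:173154027-173154226: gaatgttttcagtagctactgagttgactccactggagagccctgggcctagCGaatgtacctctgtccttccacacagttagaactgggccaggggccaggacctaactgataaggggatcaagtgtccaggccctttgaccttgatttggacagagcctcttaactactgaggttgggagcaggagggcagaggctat
Cpt1a, chr19:3320163-3320362: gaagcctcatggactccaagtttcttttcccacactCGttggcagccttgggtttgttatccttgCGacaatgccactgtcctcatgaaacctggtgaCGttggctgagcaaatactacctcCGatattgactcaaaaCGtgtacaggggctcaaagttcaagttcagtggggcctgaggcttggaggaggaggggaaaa

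The A/J stretches held 22 and 26 CpGs and had a GC content of 72.5 and 71.0%. The C57BL/6J stretches shown held 1 to 6 CpGs and had a GC content of 48.5 to 53.0%. Another C57BL/6J-only stretch, near F12 at percentile 95.9 and not shown, held 7 CpGs and had a GC content of 54.5%. The same contrast ran through the whole comparison, as described below.

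The C57BL/6J list held 30598 peaks (median width 403.5 bp), and the A/J list held 29914 (median width 528 bp). They covered 15.5 and 19.2 Mb. Each list combines the 2 replicates of its strain into reproducible peaks, so no value here has a replicate error and no difference between the strains could be tested. Read depth is not given in the lists. Per the study's supplement, the A/J libraries had fewer filtered reads than those of C57BL/6J. A site without a call can be accessible below the caller's threshold. Confidence intervals are exact (Clopper-Pearson, 95%) and describe counting error alone, as sites near each other are not independent. As a check of the tissue, sites were assigned to the gene with the nearest protein-coding TSS and compared with marker genes. All 10 hepatocyte markers had at least 1 site (61 sites), against 7 of 7 endothelial (19 sites), 6 of 7 stellate (22 sites), 3 of 6 cholangiocyte (19 sites), 2 of 7 Kupffer cell (2 sites) and 1 of 7 lymphocyte markers (2 sites). Over all sites of the pair 29.6% were called in C57BL/6J only and 28.7% in A/J only. Of the hepatocyte marker sites 33 were called in C57BL/6J only and 14 in A/J only, of the endothelial 8 and 5, of the cholangiocyte 7 and 4, and of the stellate, whose median GC content was 63.4%, 4 and 15. Of the 2 Kupffer cell marker sites each strain had 1, and both lymphocyte marker sites were shared. The part of cell composition in the difference between the strains was not tested.

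Of the 40904 sites, 29.6% were called in C57BL/6J only (95% confidence interval 29.1 to 30.03%), 28.7% in A/J only (28.3 to 29.2%) and 41.7% in both (41.2 to 42.2%). One-strain sites were mostly weak. Since each list has its own signal scale, signal was expressed as the percentile of a peak within its strain's list, with 100 as the strongest peak. Among C57BL/6J sites below percentile 25, 69.4% had no A/J peak (68.3 to 70.5%), and this share fell to 11.0% at percentiles of 75 to 90 (10.1 to 11.9%) and to 1.62% above 90 (1.20 to 2.14%). Among A/J sites it fell from 71.3% (70.2 to 72.3%) to 6.03% (5.34 to 6.77%) and 0.168% (0.0544 to 0.391%). Median percentiles were 31.4 at C57BL/6J-only and 29.2 at A/J-only sites. The nearest peak of the other strain lay more than 1 kb away at 83.8% of C57BL/6J-only and 78.1% of A/J-only sites, so most were separate from the other strain's sites.

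**Figure D1:**
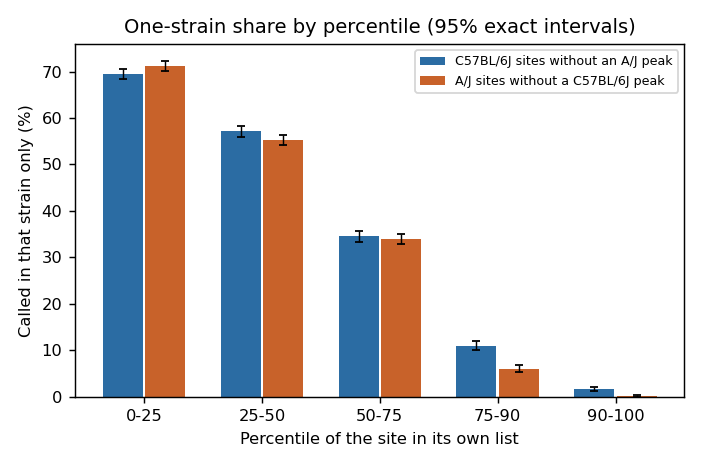
Bars give the percent of a strain's sites that had no peak in the other strain, by the site's percentile in its own list, with exact 95% intervals. In both strains the share falls from 69.4% (C57BL/6J) and 71.3% (A/J) in the lowest bin to 1.62% (C57BL/6J) and 0.168% (A/J) in the highest.

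The classes differed in where they lay. A TSS of a protein-coding gene lay within 1 kb of 8.60% of C57BL/6J-only sites (1040 sites, 95% interval 8.10 to 9.11%), 40.4% of A/J-only sites (4749 sites, 39.5 to 41.3%) and 54.8% of shared sites (9348 sites, 54.0 to 55.5%). These are called promoter sites, and all others distal. Among sites of 55 to 60% GC alone, a choice made after the data were seen, the shares were 10.5, 18.1 and 48.3%. The middle of the site fell in an exon of a protein-coding gene at 6.50% of C57BL/6J-only sites and 32.6% of A/J-only sites. Introns held 48.2% and 37.8%, and the rest was intergenic. C57BL/6J-only sites were narrower, with a median of 287 bp, than A/J-only sites (431 bp) and shared sites (747 bp).

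The one-strain classes differed in base composition, and the interquartile ranges of their GC content did not overlap. The median GC content was 50.9% at C57BL/6J-only sites (quartiles 48.9 and 52.8%), 61.1% at A/J-only sites (58.1 and 65.5%) and 58.0% at shared sites (54.3 and 62.6%). The ratio of observed to expected CpG had medians of 0.235, 0.458 and 0.560 in the same order. Of the 667 sites with less than 45% GC, 56.5% were called in C57BL/6J only and 17.8% in A/J only. Of the 4858 sites with 45 to 50% GC, 83.9% were called in C57BL/6J only and 2.78% in A/J only. Of the 1099 sites with 70% GC or more, 76.8% were called in A/J only and 0 in C57BL/6J only. Among promoters, sharing was most frequent at 55 to 60% GC, where 77.1% of 3290 sites were shared, 2.89% were C57BL/6J only and 19.97% A/J only. Of the 6504 distal sites of that GC content, 41.8% were shared, 12.5% were C57BL/6J only and 45.7% A/J only. At distal sites the median GC was 50.9% in the C57BL/6J-only class and 59.4% in the A/J-only class. Whether the libraries or the strains carry this difference in base composition was not tested, and with 1 list per strain they cannot be told apart.

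**Figure D2:**
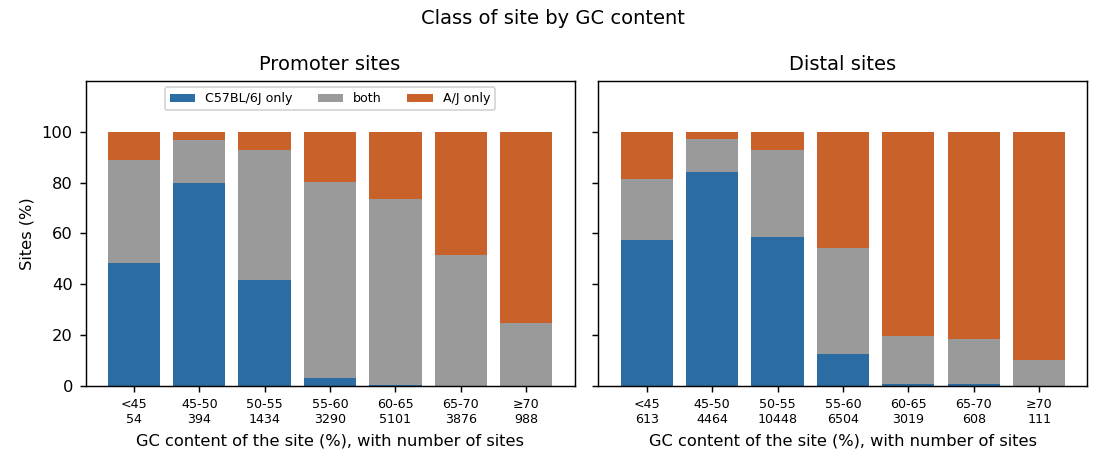
Stacked bars give the percent of sites in each class by GC content of the site, for promoter and distal sites, with the number of sites under each bar. C57BL/6J-only sites make up 84.3% of distal sites with 45 to 50% GC, and A/J-only sites make up 75.3% of promoter sites with 70% GC or more.

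Other pairs of lists were set beside this one to see which list stood apart. A/J was paired in turn with the other 5 inbred strains (DBA/2J, CBA/J, C3H/HeJ, BALB/cJ and AKR/J), and A/J-only sites made up 24.5 to 32.8% of the sites of these pairs, had a promoter share of 37.6 to 40.1% and had a median GC content of 60.8 to 61.0%. C57BL/6J paired with the same strains gave C57BL/6J-only shares of 14.2 to 25.4%, with 61.9 to 68.6% of sites shared. The pairs of A/J with the other inbred strains shared 44.9 to 48.9% of their sites. The A/J list had the highest median GC content of the 9 lists (59.9%), while C57BL/6J (54.3%) was within the range of the others (53.8 to 56.1%). The values that describe A/J-only sites were therefore similar whichever strain A/J was compared with. The same held for the opposite side. Sites of the other 5 strains without an A/J peak had promoter shares of 7.4 to 9.7% and median GC contents of 48.2 to 51.6%. C57BL/6J sites without an A/J peak had 8.6% and 50.9%. Paired with the other 5 strains, C57BL/6J-only sites had promoter shares of 11.5 to 16.4% and median GC contents of 50.6 to 52.2%. C57BL/6J and A/J shared the smallest part of their sites, 41.7%, among these 11 pairs.

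Strong one-strain sites were defined by a percentile of 75 or more. In C57BL/6J there were 543, or 1.33% of all sites of the pair, of which 52 were promoter and 491 distal. In A/J there were 268, or 0.655% of all sites, of which 231 were promoter and 37 distal. The strong C57BL/6J sites were therefore mostly distal, and the strong A/J sites mostly promoter sites. The members nearest the threshold were sites near Ppp2ca (C57BL/6J, percentile 75.02) and Pik3c2b (A/J, 75.01), and the nearest sites left out were near Zfp655 (C57BL/6J, 74.98) and Ankrd33 (A/J, 74.97). Of the 14106 genes that were nearest to at least 1 site, 50 had a strong C57BL/6J-only promoter site (0.354%), 454 a strong C57BL/6J-only distal site (3.22%), 231 a strong A/J-only promoter site (1.64%) and 37 a strong A/J-only distal site (0.262%).

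The promoters with the strongest peaks in C57BL/6J and none in A/J belonged to genes of varied roles, and most of them were also open in the other inbred strains. The highest percentile, 91.7, was at the promoter of Deptor, an inhibitor of the growth kinase mTOR (chr15:54964455-54965078, GC 48.4%). All 5 other inbred strains also had a peak there, at percentiles from 16.2 in DBA/2J to 69.6 in BALB/cJ. Fggy, which encodes a carbohydrate kinase, followed at 90.8 (chr4:95223969-95224475), and the nearest A/J peak lay 202904 bp away. AKR/J, C3H/HeJ and CBA/J had this peak at percentiles of 75.7 to 91.5, and BALB/cJ and DBA/2J had none. Lars, which encodes leucyl-tRNA synthetase, and Dhrs7b, a dehydrogenase, were both at 90.6 and were called in all 5 other inbred strains, with the highest value in DBA/2J (93.2 and 94.6). Cox7a1, a subunit of cytochrome c oxidase in the respiratory chain, was at 88.7 (39.9 in AKR/J to 70.8 in DBA/2J). Gabarapl1, an autophagy protein, was at 88.5, with an A/J peak only 45 bp away. Asna1, which delivers membrane proteins to the endoplasmic reticulum, was at 89.4 with an A/J peak 49 bp away. Rhobtb1 (90.3), the muscle gene Csrp3 (88.8) and the methyltransferase gene Inmt (88.2) completed the highest 10. Of these 10 promoters, 9 were called in all 5 other inbred strains.

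Several of the strongest distal C57BL/6J sites lay close together. The highest pair, at percentiles of 99.5 and 99.3, lay 6.70 kb upstream of 9230019H11Rik (chr10:7233404-7233858) and 65.3 kb downstream of the TSS of Pdia4, an endoplasmic reticulum chaperone (chr6:47697917-47698206). No other list of the series had a peak at either. In all, 9230019H11Rik had 4 strong C57BL/6J-only sites, with percentiles of 82.4, 87.7, 97.0 and 99.5, and none of them had a peak in any other list. Sfi1, which encodes a centrosome protein, had 13 strong C57BL/6J-only sites, 2 of them at promoters and 4 of them among the 10 strongest distal sites at percentiles of 96.7 to 97.8. All 13 lay between positions 3025651 and 3096917 of chromosome 11, and an A/J peak that did not overlap lay 127 to 849 bp from each. DBA/2J had a peak at all 13, with percentiles of 88.7 to 99.7, and so had BXH2/TyJ, with 43.0 to 81.7. C3H/HeJ had none at any of the 13, AKR/J had peaks of at most 38.3, and BALB/cJ had a single peak. Within this stretch C57BL/6J and DBA/2J were thus strong together and A/J, AKR/J and C3H/HeJ were not. The sites near Armc4 (97.9) and Scaf8 (chr17:3077762-3078098, 97.8) were strong in DBA/2J and BXH2/TyJ, weak in CBA/J and without a call in the remaining lists. R3hcc1 (96.0) was called in all other strains at 16.4 to 66.2.

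Promoters with a strong peak in A/J alone were GC-rich, with a median GC content of 68.3% over the 231 sites, against 50.8% over the 52 strong C57BL/6J-only promoter sites. The strongest was at Msh6, which encodes a DNA mismatch repair protein (chr17:88373999-88375190, percentile 94.9, GC 69.5%). Its percentile in the other inbred strains ranged from 12.4 in DBA/2J to 90.7 in CBA/J, and the recombinant strains BXH2/TyJ and BXH19/TyJ, bred from C57BL/6J and C3H/HeJ, had 97.3 and 94.0. Kctd13, an adaptor of a ubiquitin ligase, was at 92.9 (45.5 in AKR/J to 90.9 in CBA/J) and had no DBA/2J peak. Acot7, an acyl-CoA thioesterase that releases fatty acids from coenzyme A, was at 89.8, with 35.2 in DBA/2J and 54.5 to 83.8 in the remaining inbred strains. Yes1, a kinase of the Src family, was at 89.6, and the nearest C57BL/6J peak lay 101302 bp away. Thrb, the main thyroid hormone receptor of liver, was at 89.0 (chr14:18492743-18494000), but a C57BL/6J peak lay 319 bp away. C57BL/6J peaks were similarly near at Phlda1 (89.8, 285 bp), Zzz3 (88.7, 216 bp), the thioredoxin reductase gene Txnrd1 (88.3, 271 bp) and the anion channel gene Lrrc8d (88.3, 311 bp). Atrn (87.5) completed the highest 10, and its nearest C57BL/6J peak was 7090 bp away. At these 10 promoters DBA/2J either had no peak, as at Kctd13, Yes1, Zzz3 and Atrn, or a percentile of at most 38.6.

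Strong distal A/J sites were few. The strongest, at percentile 99.9, lay 2.01 kb from Gm10716 near the start of chromosome 9 (chr9:3027459-3028331), had a GC content of 34.2% and reached 99.9 in AKR/J, BALB/cJ, CBA/J and DBA/2J too, while C3H/HeJ had 24.7. C57BL/6J had a separate peak 180 bp from it. The site 76.2 kb from Gng4, a G protein subunit (98.5), ranged from 34.4 to 98.2 in the other inbred strains. The site 55.4 kb upstream of Ezh2, the methyltransferase of Polycomb repressive complex 2, was at 93.4 and ranged from 41.8 to 97.2. Hlcs, which attaches biotin to carboxylases such as acetyl-CoA carboxylase, had a site 1.87 kb from its TSS at 86.0. Trp53i13 (84.9), Chst14 (84.1), Rrp9 (82.9), Olfr545 (82.4), Apbb2 (82.2) and Pura (82.1) followed, and each was called in at least 4 of the other 5 inbred strains.

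The other 7 lists took no part in forming the classes. Strong one-strain sites were mostly present elsewhere. Of the 543 strong C57BL/6J-only sites, 412 (75.9%) were called in all 5 other inbred strains and 20 (3.68%) in none. Each of these strains had a peak at 86.4 to 88.4% of them. Over all sites of the pair, 43.8% were called in all 5 and 21.8% in none. Of the 268 strong A/J-only sites, 85 (31.7%) were called in all 5, 144 (53.7%) in 4 and 2 in none. CBA/J, BALB/cJ, AKR/J and C3H/HeJ had a peak at 91.4 to 96.3% of them, and DBA/2J at 33.96%. When a call had to cover at least 50% of the site, the share called in all 5 was 11.2% for A/J and 68.7% for C57BL/6J. DBA/2J thus lacked most of the strong A/J-only sites, and no inbred strain other than A/J lacked most of the strong C57BL/6J-only sites. The DBA/2J list was the shortest, with 26769 peaks. Over all sites of the pair DBA/2J had a peak at 54.9%, against 61.2 to 65.2% in the other 4 strains.

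The calls differed when weak sites were included. Over all 12100 C57BL/6J-only sites, 13.7% were called in no other inbred strain, against 60.3% of the 11744 A/J-only sites. The other inbred strains called 47.1 to 68.2% of C57BL/6J-only sites and 14.0 to 26.3% of A/J-only sites. Both recombinant strains carry C57BL/6J and C3H/HeJ alleles. BXH2/TyJ had a peak at 52.7% of C57BL/6J-only and 33.8% of A/J-only sites, and BXH19/TyJ at 63.6% and 18.2%. At A/J-only promoters BXH2/TyJ had a peak at 47.5%, more than any other list. It also had the most calls over all promoter sites of the pair, 79.7% against 64.7 to 73.1% in the others. The 7084 sites that A/J shared with no other inbred strain were GC-rich (median 61.9%), and 41.1% of them were promoter sites. The 1653 sites private to C57BL/6J had a median GC of 50.8%, and 7.92% were promoter sites.

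**Figure D3:**
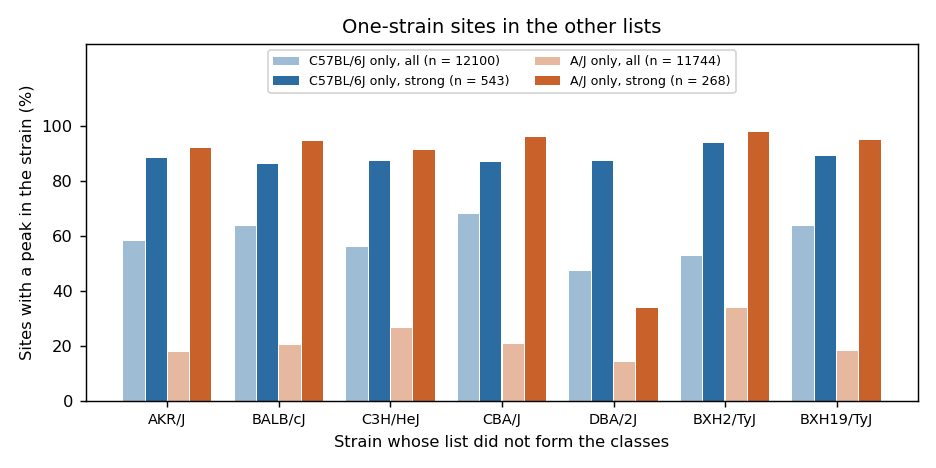
Bars give the percent of one-strain sites that had a peak in each list that did not form the classes, for all sites of a class (pale) and for strong sites (dark). Strong sites of both classes stand at 86.4% or more in every list except strong A/J-only sites in DBA/2J (33.96%), while pale bars for A/J-only sites stand at 14.0 to 33.8%.

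Strong peaks private to C57BL/6J or A/J among the inbred strains were rare. Besides those named above, the strongest in C57BL/6J lay 4.33 kb from the TSS of Rbp4, the plasma carrier of retinol made by liver (chr19:38194328-38194976, percentile 93.8), and no other list had a peak there. A site 18.5 kb from H2-K1, a class I antigen-presenting gene, was at 92.0 (chr17:34117940-34118726) and was otherwise called in BXH19/TyJ alone, at 87.9. Private sites near Pisd (92.1) and Vmn1r124 (89.7) were called in BXH2/TyJ (59.7 and 66.0) and in no other list. In A/J the 2 strong private sites were at the promoter of Ddi2, a protease (78.6, GC 68.9%), and 241.4 kb from Olfr161 (80.7, GC 46.1%). The genes of this paragraph were chosen after their values were seen.

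Counting strong sites in the other pairs of lists showed where this pair differed. C57BL/6J had 543 strong sites without an A/J peak and 105 to 152 without a peak in each of the other 5 inbred strains. A/J had 268 strong sites without a C57BL/6J peak, 383 without a DBA/2J peak and 33 to 44 without a peak in each of the others.

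Of the 14106 genes nearest to a site, 499 had a strong C57BL/6J-only site and 266 a strong A/J-only site. A set of 7 genes had both, namely Agap1, Ddah1, Galnt2, Lrp6, Ror1, Sgms1 and Tmem184b, and whether this number departs from chance was not tested. At each of them the A/J site was at the promoter and the C57BL/6J site was distal. Most strong sites of the 2 strains had these places (231 of 268 in A/J and 491 of 543 in C57BL/6J). Lrp6, a Wnt coreceptor, had an A/J-only promoter site at 80.2 and a C57BL/6J-only site upstream at 76.2. Galnt2, a glycosyltransferase linked to lipoprotein metabolism, had an A/J-only promoter site at 78.7 and a C57BL/6J-only site at 92.0, which lay 34204 bp downstream of the TSS. Sgms1, which makes sphingomyelin, had the values 78.4 and 86.1, with a C57BL/6J peak only 238 bp from its A/J promoter site. Ddah1, which degrades an inhibitor of nitric oxide synthesis, had 75.7 and 83.3.

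At the 17060 shared sites the strains ranked peaks only partly alike. The Spearman correlation of the C57BL/6J and A/J percentiles over these sites, given as a description since sites share libraries, was 0.507 (0.542 at promoters and 0.257 at distal sites). It was 0.789 to 0.816 when C57BL/6J was paired with the other inbred strains, and 0.565 to 0.709 when A/J was. The difference in percentile, C57BL/6J minus A/J, had a median of -0.86 with quartiles of -17.5 and 17.3. It was within 10 points at 33.7% of sites. C57BL/6J was higher by 50 points or more at 827 sites (4.85%), of which 126 were promoter sites, and A/J was at 829 (4.86%), of which 624 were. The difference followed GC content, with a Spearman correlation of -0.576 over the 17060 sites. Its median fell from 33.8 at sites with 45 to 50% GC through -0.041 at 55 to 60% to -34.01 at 70% or more. Sites with less than 45% GC stood outside this order, with a median difference of 0.016.

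**Figure D4:**
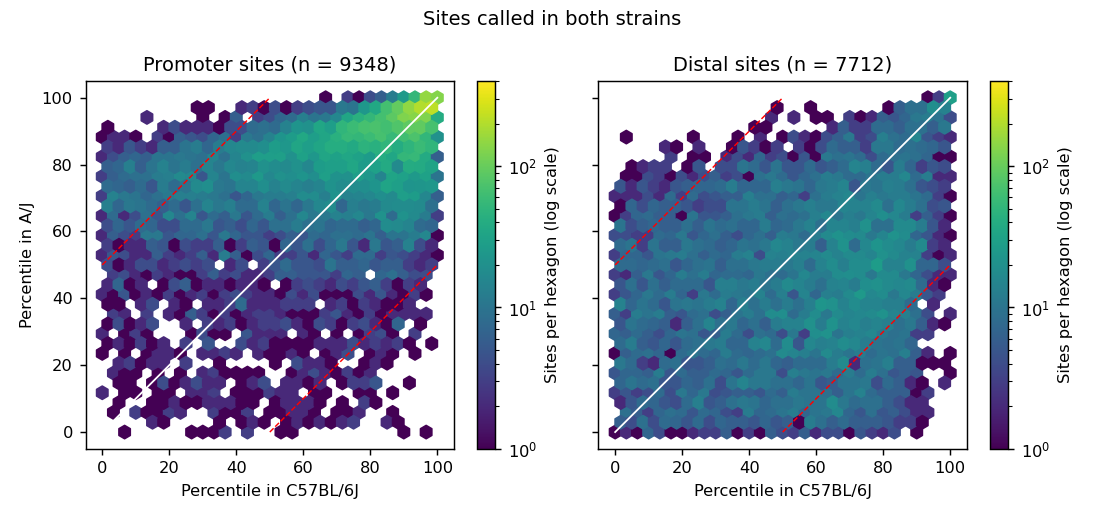
Hexagons count shared sites by percentile in C57BL/6J (x axis) and A/J (y axis), with a log colour scale, for promoter and distal sites. The white line marks equal percentiles and the red dashed lines a difference of 50. Promoters gather at high percentiles in both strains and spread above the white line (624 against 126 beyond the dashed lines), and distal sites spread below it (701 against 205).

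The largest shared differences in favour of C57BL/6J were at Bub1b and Bcl6. The Bub1b promoter, of a mitotic checkpoint kinase, was at 96.8 in C57BL/6J and 0.446 in A/J (GC 56.0%). It was at 19.98 in BALB/cJ, 38.7 in C3H/HeJ, 87.5 in BXH2/TyJ and 87.8 in BXH19/TyJ, and had no peak in AKR/J, CBA/J or DBA/2J. A site 9.03 kb downstream of the TSS of Bcl6, a transcriptional repressor active in liver lipid metabolism, was at 93.3 against 2.07, and the other inbred strains lay between 74.0 and 85.3. Sites near Gm15401 (91.1 against 0.719) and Gm6712 (93.5 against 4.57), and the promoter of Fam47e (89.2 against 0.446), followed. The largest differences in favour of A/J were all but 1 at promoters. They were at 2310061I04Rik (91.8 against 3.03 in C57BL/6J), Mgat4b, a glycosyltransferase (88.2 against 0.056), H2afy, which encodes the histone variant macroH2A (85.5 against 0.056), and Myl12b, a myosin light chain (89.0 against 4.14). The fifth was a site 5.38 kb from Homez (88.4 against 3.57), distal by the protein-coding TSSs used here. With TSSs of all annotated genes it overlapped one of Ppp1r3e. The GC content of the 5 A/J sites was 64.5 to 72.7%, and that of the 5 C57BL/6J sites was 49.9 to 56.0%.

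The other strains stood closer to C57BL/6J at one end of this ranking and in between at the other. At the 827 sites where C57BL/6J was higher, the median percentile was 78.6 in C57BL/6J and 14.96 in A/J, and 60.9 to 72.5 in the other lists. At the 829 sites where A/J was higher, it was 13.0 in C57BL/6J and 75.3 in A/J, with 33.9 in DBA/2J, 44.7 to 50.8 in 5 lists and 67.0 in BXH2/TyJ. The medians of these lists cover only the sites that each of them called. At the 829 sites that was 66.6% in DBA/2J and 88.2 to 96.0% in the other lists. When the difference was taken against the median of shared sites of the same GC content, a ranking added after the data were seen, 138 sites were higher in C57BL/6J by 50 or more and 584 in A/J. Bub1b stayed first for C57BL/6J, 91.0 points above sites of its GC content. Mgll, which cleaves monoacylglycerols to release fatty acids, had a site 6.32 kb downstream of its TSS at 87.4 against 5.87, or 76.2 points above. The leading A/J sites in this ranking were distal, near 6430527G18Rik (62.2 against 0.822 in C57BL/6J), Rtn4rl1 (58.8 against 0.056) and Iqsec1 (81.2 against 8.34). A site 45.8 kb upstream of Il33, an alarm cytokine, was at 66.2 against 14.5.

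Genes of liver metabolism were read from 11 lists, which held 1168 of the sites. Their sites were more often distal (promoter share 22.1% against 37.0% over all sites) and had a median GC content of 54.2% (56.5% over all sites), values that move with the class of a site as shown above, and their part in the shares below was not tested. The C57BL/6J-only share was above that of all sites (29.6%) in 8 of the 11 lists, and the A/J-only share was above that of all sites (28.7%) in 1. The C57BL/6J-only and A/J-only shares were 57.4 and 6.38% for bile acid genes (47 sites), 48.7 and 22.4% for acute phase and inflammation (76 sites), 47.4 and 14.1% for xenobiotic metabolism (78 sites) and 45.2 and 24.7% for triglyceride and lipid droplet genes (73 sites). They were 40.2 and 16.5% for fatty acid oxidation and ketogenesis (97 sites), 38.8 and 19.05% for glucose and insulin (147 sites) and 37.4 and 14.8% for cholesterol and lipoprotein genes (115 sites). The circadian clock (29.8 and 19.3%, 114 sites) and fatty acid synthesis (29.4 and 21.1%, 109 sites) were nearest to the C57BL/6J-only share of all sites. Their A/J-only shares were below that of all sites. Interferon and antigen presentation (28.9 and 26.7%, 45 sites) was near both shares. Only the hepatocyte transcription factor list had more A/J-only (37.8%) than C57BL/6J-only sites (26.6% of 267). Its genes differed, with the most A/J-only sites at Cebpb (22, with 3 in C57BL/6J only) and Rxra (19, with 5). Nr5a2, Prox1, Gata6, Foxa2, Hnf4a and Onecut1 had more C57BL/6J-only than A/J-only sites. Strong sites were few, with 18 in C57BL/6J (1.54% of list sites, against 1.33% over all sites) and 3 in A/J (0.257%, against 0.655%).

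**Figure D5:**
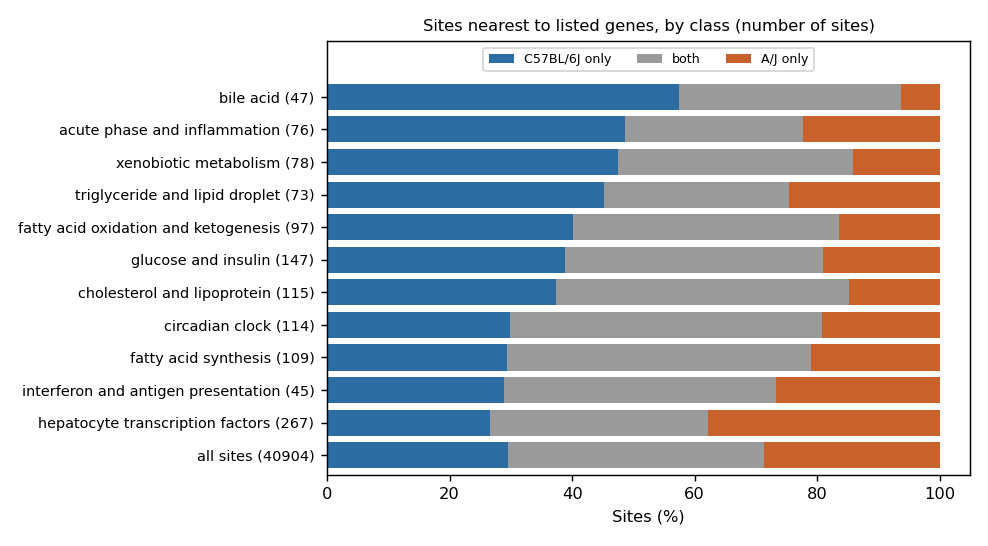
Horizontal bars give the percent of sites nearest to the genes of each list that were called in C57BL/6J only, both strains or A/J only, with the number of sites in parentheses. Bile acid genes have the longest C57BL/6J-only part (57.4%) and hepatocyte transcription factors the longest A/J-only part (37.8%).

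Among lipid genes, Lpin2, which encodes a lipin, an enzyme that makes diacylglycerol for triglyceride, had the strongest C57BL/6J-only promoter site of these function lists (87.5, chr17:71553726-71553986, GC 43.3%). It lay at a downstream TSS, and the first promoter of Lpin2 was shared, at 27.9 in C57BL/6J and 63.5 in A/J. Pparg, a nuclear receptor that promotes fat storage, likewise had a C57BL/6J-only site 40.9 kb downstream of a TSS at 87.3 (called in all 5 other inbred strains), and it had A/J-only promoter sites at 48.0 and 16.5 with a GC content of 69.4 and 65.1%. Abhd5, the activator of the triglyceride lipase ATGL, had an A/J-only promoter site at 75.9. In fatty acid synthesis, Elovl6, which elongates fatty acids, had 14 sites, of which 10 were C57BL/6J only, with the strongest at 86.0, 60.6 kb from the TSS. Acaca, acetyl-CoA carboxylase, had a C57BL/6J-only site 16.5 kb downstream of a TSS at 75.2. All 15 genes of this list, among them Fasn and Scd1, had at least 1 promoter site called in both strains.

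For fatty acid oxidation, a C57BL/6J-only site 2.87 kb upstream of Cpt1a, which carries fatty acids into mitochondria, reached 86.1 (chr19:3319426-3320427), with 33.7 in C3H/HeJ to 59.4 in CBA/J among the other inbred strains. Ppargc1a, a coactivator of mitochondrial genes, had 11 sites, of which 8 were C57BL/6J only, with the strongest at 83.4. Pdk4, a kinase that restrains glucose oxidation, had a C57BL/6J-only site 2.48 kb upstream at 75.2. Ppara itself had 27 sites, 12 shared, 7 in C57BL/6J only and 8 in A/J only, and none of the one-strain sites was strong.

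In glucose and insulin genes, G6pc, which encodes the enzyme that releases glucose from liver, had a C57BL/6J-only site 11.3 kb away at 87.6, with 64.2 in DBA/2J to 80.5 in CBA/J. Irs2, an insulin receptor substrate, had one at 77.4, Igfbp2 at 76.0 and Ppp1r3b, which targets a phosphatase to glycogen, at 75.4. All 4 were called in all 5 other inbred strains. Bile acid genes had no strong one-strain site. The only site of Cyp7a1, the rate-limiting enzyme of bile acid synthesis, was C57BL/6J only at 48.8, and the promoter sites of Slc10a1 (33.1), Abcb11 (52.4) and Cyp8b1 (25.1), for bile acid uptake, export and synthesis, were C57BL/6J only too. Nr1h4, the bile acid receptor FXR, had 6 sites, of which 5 were C57BL/6J only. Cholesterol and lipoprotein genes had no strong one-strain site either, and the largest number of sites was at Scarb1, an HDL receptor (27, of which 14 were shared).

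The remaining lists held few strong sites. They were near Hpx, a heme carrier (87.3), near Ephx1, an epoxide hydrolase (80.9), and at H2-K1 (80.9 and 92.0), all in C57BL/6J only. Among transcription factors, Cebpb had a C57BL/6J-only site 25.4 kb away at 88.4 and 22 A/J-only sites of at most 62.6, while Foxa3 had an A/J-only promoter site at 85.7 (chr7:19608534-19609196), 61 bp from a C57BL/6J peak. Among clock genes, the repressor Cry2 (86.5) and Hlf (78.1) had C57BL/6J-only distal sites and Clock an A/J-only promoter site at 76.0 with a GC content of 73.0%. Of hepatocyte markers, Apoa2 had a C57BL/6J-only site 0.903 kb upstream at 87.6, Tat, which degrades tyrosine, had C57BL/6J-only sites at 84.4 and 75.5, and Trf had one at 77.3. Both sites of Alb were C57BL/6J only (72.1 and 32.9). The list of genes with known strain alleles had 19 sites, 7 in C57BL/6J only, 5 in A/J only and 7 shared, none of them strong among the one-strain ones. Nnt, of which C57BL/6J carries a known deletion, kept a promoter site in both strains, at 5.62 in C57BL/6J and 71.6 in A/J (GC 63.3%). Hc, of which A/J carries a known null allele, had 1 site, C57BL/6J only at 4.93.

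One-strain sites were counted in windows of 1 Mb. The window with the most C57BL/6J-only sites was chromosome 1 from 90000001 to 91000000, with 52 of 78 sites, and 4 in A/J only. It holds the Ugt1a genes, which conjugate bilirubin and drugs, but the largest part of these sites, 24, lay nearest to Heatr7b1. Ugt1a1 had 10 sites, of which 9 were C57BL/6J only with at most 61.8. Hjurp had 16, of which 8 were C57BL/6J only. The window from 85000001 to 86000000 of the same chromosome followed, with 40 of 46 sites in C57BL/6J only, at A530032D15Rik and C130026I21Rik. The third, chromosome 10 from 127000001 to 128000000, had 37 of 117 sites in C57BL/6J only (31.6%) and 34 in A/J only (29.1%), close to the 29.6 and 28.7% over all sites, and holds a group of retinol dehydrogenase genes (Rdh7, Rdh16, Rdh19). The windows with the most A/J-only sites were GC-rich and dense in genes. They were chromosome 10 from 79000001 to 80000000 (122 of 209 sites, 9 in C57BL/6J only), the next 1 Mb (97 of 209, with 16) and chromosome 8 from 73000001 to 74000000 (65 of 150, with 17), with median GC contents of 60.5, 59.9 and 59.3%. By chromosome, the C57BL/6J-only share was highest on chromosome 13 (40.5%) and lowest on chromosome 7 (24.1%), where the A/J-only share was highest (33.2%).

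The loci that the study draws or names had the following sites. At Adi1, of the methionine salvage pathway, the promoter was shared (45.2 in C57BL/6J and 79.8 in A/J), and a site 6.22 kb downstream of the TSS was C57BL/6J only at 68.6 and called in no other inbred strain. Lipc, hepatic lipase, had 1 shared site (78.0 against 35.5) and 4 C57BL/6J-only sites. The Mup5 and Mup19 region, of the major urinary proteins, had 4 C57BL/6J-only sites of 5.11 to 34.8, and the nearest A/J peak was 235970 bp or more away from each. Enpp1 had an A/J-only promoter site at 66.3, called in no other inbred strain. This promoter site is not the Enpp1 site that the paper draws. The paper's site lies in an intron, at a polymorphic long terminal repeat that C57BL/6J carries and A/J lacks. No C57BL/6J peak was assigned to Enpp1 by the nearest TSS. The nearest one lay 73040 bp from the promoter site, so the strain pattern of the paper's site was not examined here. At Suds3 the promoter was shared at 10.01 against 78.8, with an A/J-only site 30.3 kb away at 69.1 and a C57BL/6J-only promoter site 0.767 kb upstream of the TSS at 43.1. Dusp1 and Herpud1 had shared promoters at 88.9 against 95.03 and 86.8 against 84.5. Near Herpud1 a shared distal site 27.2 kb upstream was at 94.7 against 34.9. Ugt2b37 had 1 shared site (57.2 against 37.9).

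Short sequence motifs were counted on both strands of 300 bp windows at the middle of each site, as descriptions. Most of the motifs counted were more frequent in C57BL/6J-only than in A/J-only windows. TGTTTAC, the FOXA motif, was in 6.89% of C57BL/6J-only, 1.95% of A/J-only and 3.96% of all windows. The C/EBP motif TTGCNNAA was in 18.4, 6.37 and 11.0%, and the nuclear receptor half-site AGGTCA in 34.9, 16.6 and 23.5%. The HNF1 motif GTTAATNAT was in 1.64, 0.238 and 0.831%, and the HNF4 motif CAAAGTCCA in 2.51, 0.417 and 1.30%. Motifs of factors that are not particular to liver had the same direction. TGANTCA, of AP-1, was in 11.6, 5.38 and 7.50%, TTCNNNGAA, of STAT factors, in 9.93, 5.12 and 7.12%, CCAAT, of the promoter factor NFY, in 35.0, 20.2 and 28.5%, and the E-box CACGTG in 8.30, 6.38 and 7.92%. The CREB motif TGACGTCA (0.628 and 0.553%) and the YY1 motif AAGATGGC (1.71 and 1.46%) were at similar shares in both classes. The SP/KLF, ETS and NRF1 motifs were more frequent in A/J-only windows. GGGCGG, bound by SP and KLF factors, was in 6.95% of C57BL/6J-only and 43.2% of A/J-only windows (33.2% of all), and in 80.2% of strong A/J-only windows. CCGGAAG, of ETS factors, was in 2.10 and 5.46% and in 16.5% of shared promoters. TGCGCATGC, of NRF1, was in 0.364 and 0.528%. These motifs differ in their own GC content. Among distal windows of 55 to 60% GC, the FOXA share was 4.05% in C57BL/6J-only and 2.89% in A/J-only windows. The C/EBP share in these windows was 9.37 and 8.25%, and the GGGCGG share 13.1 and 22.5%, while the AGGTCA share was 32.4 and 22.4%. The HNF1 share was lower in C57BL/6J-only windows there, at 0.213% against 0.330%. Shared distal windows of that GC content had FOXA at 4.38%, C/EBP at 10.8%, GGGCGG at 18.1%, AGGTCA at 32.4% and HNF1 at 0.939%. For none of the motifs just given was the C57BL/6J-only share above that of shared windows. It was above at AP-1 (11.3 against 9.36%), STAT (8.95 against 7.38%), E-box (8.84 against 8.56%) and YY1 (1.49 against 1.29%). It was below at HNF4 (1.06 against 2.12%), ETS (2.77 against 5.46%), NRF1 (0.213 against 0.557%) and CREB (0.532 against 0.626%). CCAAT was in 28.1% of both.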

How the data were processed

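FAIRE-seq was performed on livers of male mice of 9 strains, 2 per strain, on the HF/HS diet. Per the study's methods, the authors mapped reads with bowtie1 to mm9, for strains other than C57BL/6J carrying the strain's SNPs (for BXH2/TyJ and BXH19/TyJ, mm9 itself and mm9 with C3H/HeJ SNPs), removed duplicates, ran F-seq on every library and used IDR to join the replicates into 1 list per strain. For the tool versions and the cutoff of IDR, nothing was stated in the methods or labels. The deposited lists hold positions and, in column 7, a score, the signal value of the authors' peak caller, whose scale differs between strains. Read counts were not analysed here, so replicate error is unknown. Per the study's supplement, the A/J libraries had fewer filtered reads than those of C57BL/6J.

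C57BL/6J and A/J peaks on the 19 autosomes were merged where they overlapped or touched. Signals were ranked within each whole list (percentile, ties averaged), and a site took the highest percentile among its peaks. Genes were assigned by the nearest TSS of a protein-coding gene in GENCODE M1 (NCBIM37, which is mm9). A site with a TSS within 1 kb was a promoter site. A one-strain site was strong at percentile 75 or more, and a shared site differed strongly at 50 points or more. No test was run across sites, since each strain has 1 list. Analyses used matplotlib 3.10.9, pysam 0.24.0, scipy 1.17.1, pandas 2.3.3 and numpy 2.4.6 under Python 3.11.15. Each of 5 steps (merging, classes, nearest TSS, percentile, overlap) was tested on simulated data and matched the known answer in 50 of 50 runs.

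The text names the 10 strongest sites per class and place, the 5 largest shared differences in each direction, at most 6 genes per list with a strong one-strain site, the 3 windows of 1 Mb with most sites of each one-strain class, and loci the study draws or names. Other genes named were chosen after their values were seen. The members and lists were chosen with earlier results of these data known. The deposited sets of variable and common sites hold the outcome of the authors' own comparison between strains and were not used.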

Additional observations from a re-analysis of the deposited data

Results flagged for a closer look

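The comparison was restricted to autosomes, and the sex chromosomes held further sites of both lists. On chromosome X there were 517 sites, of which 71 were called in C57BL/6J only, 218 in A/J only and 228 in both. On chromosome Y there were 52 sites, of which 35 were called in C57BL/6J only, 2 in A/J only and 15 in both.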

How the results depend on the processing

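Of 66 values recomputed under alternatives, 35 were labelled as moving little and 31 as moved. The labels for counts, shares and GC medians were not on a common scale. The count of C57BL/6J-only sites going from 12100 to 16001 was labelled as moving little. Their median GC content going from 50.91 to 50.88% at distal sites alone was labelled as moved. The tally therefore does not show which results were stable. The values are all counts, shares or GC medians, which cannot change sign, so this tally could not show a change of order between classes. Counts labelled as moving little could still shift, as when peaks had to overlap by at least 50% of each. There 16001 sites were called in C57BL/6J only, 15645 in A/J only and 13159 in both. With the 20000 strongest peaks of each list, 7567 sites were called in C57BL/6J only and 7691 in A/J only. With the longer list cut to the length of the shorter, the counts were 11576 and 11960. In both settings A/J-only sites were the more numerous, whereas the main counts were 12100 in C57BL/6J only and 11744 in A/J only. Strong sites numbered 49 in C57BL/6J and 5 in A/J at percentile 90 or more, and 3077 and 2695 at 50 or more. The promoter shares of C57BL/6J-only, A/J-only and shared sites were 16.0, 49.0 and 59.7% with a TSS within 2500 bp, 2.98, 22.5 and 49.6% with a TSS overlapping the site, 12.9, 47.9 and 59.2% with TSSs of all annotated genes, 9.98, 53.3 and 65.3% with the 20000 strongest peaks, and 10.5, 18.1 and 48.3% at 55 to 60% GC. Their median GC content was 50.3, 61.7 and 59.7% in a 300 bp window at the middle, and 50.9, 59.4 and 54.5% at distal sites alone. Centring the difference within GC content left 138 shared sites higher in C57BL/6J by 50 or more. The restriction to 55 to 60% GC and the centring were chosen after seeing the data. Requiring a call to cover at least 50% of the site gave 68.7% of strong C57BL/6J-only and 11.2% of strong A/J-only sites called in all 5 other inbred strains, and 64.4% of A/J-only sites called in none. The cause of these shifts was not tested. No paired analysis was possible because each list combines both replicates of its strain, and for the same reason leaving out a replicate was not run. Depth was lower in A/J per the study's supplement, its part in the calls was not tested, and a missing call does not show that a site was closed.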

Other observations

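Few sites ran against the relation between class and GC content. Of the A/J-only sites, 254 had a GC content under 50%, with 19 at promoters, a median percentile of 22.8 and 94 called in no other inbred strain. Of the C57BL/6J-only sites, 36 had 60% GC or more, with 7 at promoters, a median percentile of 24.4 and 14 called in no other inbred strain. The strongest A/J-only sites under 50% GC were those near Gm10716 and Olfr161, described above, and a site 1.96 kb from Pde6h (chr6:136905477-136905819, percentile 77.8, GC 49.0%). DBA/2J, CBA/J, C3H/HeJ and AKR/J had a peak near Pde6h at percentiles of 67.4 to 82.1, and BALB/cJ and both recombinant strains had none. Sites at Gm11167 (72.0, GC 35.9%), Gm11168 (64.7, GC 34.6%) and Gm10715 (61.2, GC 35.9%) lay, as the Gm10716 site did, near the start of chromosome 9, each within 519 bp of a C57BL/6J peak that did not overlap. These genes were chosen after their values were seen.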
